A study of Caenorhabditis elegans with 16 samples.

Results

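The comparison described here is between *ets-4* mutants and wild type (wt) *Caenorhabditis elegans* held at 4 °C. It consists of 4 of the 16 RNA-seq libraries of the series, chosen by their labels: *ets-4*(*rrr16*) at 4 °C, replicates 1 and 2, and wt at 4 °C, replicates 1 and 2. Both strains are N2 in background, and *ets-4*(*rrr16*) is a mutation of the X-linked gene *ets-4*. Each library was made from about 1000 whole worms on day 1 of adulthood, fed OP50 *Escherichia coli*, after a step of 2 h at 10 °C and a stay of 24 h at 4 °C. The other libraries hold the same strains at 20 °C, and *ets-4* mutants that also carry *daf-16*(*mu86*) or *pqm-1*(*ok485*) at both temperatures. The question was which genes depend on *ets-4* in worms exposed to cold. Because whole worms were sequenced, fewer cells of a type and less RNA per cell cannot be told apart in any value below.

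ETS factors are transcription factors that bind DNA through a conserved ETS domain. In *C. elegans*, ETS-4 acts in the intestine, the tissue that digests food, stores fat, makes yolk and meets ingested microbes, and its mRNA is degraded by the ribonuclease REGE-1. The forkhead factor DAF-16, the output of insulin signalling, and the zinc finger factor PQM-1 act in the same tissue on stress and metabolic genes.

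The 4 libraries held between 36359584 and 39687841 counted reads, and no library repeated another. Levels are given as CPM, the reads of a gene per 1000000 reads of its library, with library sizes scaled across all 16 libraries. The *ets-4* transcript was measured first. It had 4.41 and 8.84 CPM in *ets-4* worms at 4 °C, against 60.8 and 85.1 CPM in wt worms, a log2 fold change of -3.50 ± 0.22 (SE, n = 2 each, adjusted p = 0.0022). At 20 °C the libraries labelled *ets-4* had 76.9 and 163 CPM, against 25.8 and 26.1 CPM in wt, which is the opposite direction. The 20 °C values are therefore described only as those of libraries so labelled. The regulators linked to it in the series were not called in the cold: levels of *daf-16* were 250 and 226 CPM in *ets-4*, against 223 and 197 CPM in wt, *pqm-1* had 224 and 270, against 189 and 255 CPM, and *rege-1* had 6.03 and 6.89, against 6.42 and 5.74 CPM. Of the 7 other ETS domain genes tested, *lin-1* was the 1 called, higher in *ets-4* by 0.55 on the log2 scale (adjusted p = 0.0109).

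Of 20447 genes counted, 14571 had enough reads to be tested. At an adjusted p under 0.05 (edgeR, replicate pairs as a block), 874 genes were higher in *ets-4* (6% of those tested) and 540 were lower (3.71%), together 9.7%. Most differences were small. Of the 1414 genes called, 1216 changed by less than 1 on the log2 scale, and the median log2 fold change was 0.55 for genes called higher and -0.24 for genes called lower. With library totals in place of the scaling used, the split moved to 889 higher and 282 lower, so that the share of higher genes among the calls went to 75.9%, against 61.8% in the fit reported. The calls rest on the pairing by replicate number. Without the block no gene was called, with a smallest adjusted p of 0.0596 and 2025 genes at an unadjusted p under 0.05, against 4565 with it. The number of calls also changed when a library was left out. Each such fit breaks a replicate pair and has fewer residual degrees of freedom, so lost power and the influence of that library cannot be told apart. Without *ets-4* replicate 2, 88 genes were higher and 23 lower, and without wt replicate 2, 108 were higher and 43 lower. Without *ets-4* replicate 1 these counts were 291 and 58, and without wt replicate 1 they were 765 and 659. In total 58 of the genes called higher and 21 of those called lower were called in each of these 4 reduced fits, and such genes are said below to have held in all 4.

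**Figure D1:**
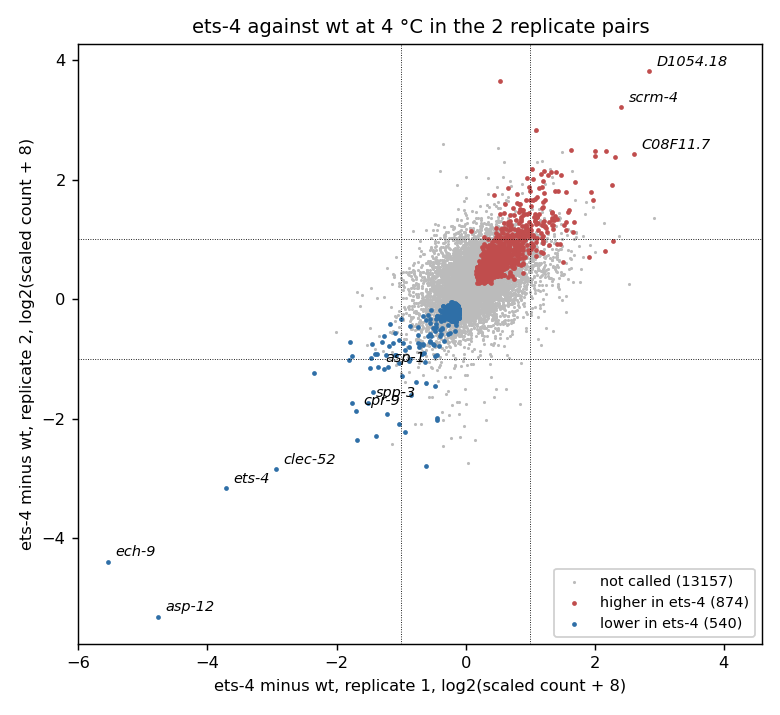
Log2 difference of each tested gene, *ets-4* minus wt at 4 °C, in replicate pair 1 (horizontal) and replicate pair 2 (vertical), on log2 of the scaled count plus 8. Each point is a gene, coloured red for the 874 called higher, blue for the 540 called lower and grey for the rest, and dotted lines mark 2-fold. *asp-12*, *ech-9*, *ets-4* and *clec-52* lie far below both lines, whereas most calls lie inside them.

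The clearest fall was in digestive proteases. Aspartyl proteases of the cathepsin D and pepsin type, many of them made in the gut, had 5 of 12 tested members lower and 1 higher. The lower share was 41.7%, against 3.71% of all genes, and 5 further members had too few reads to test. *asp-12* had 0.597 and 0.887 CPM in *ets-4*, against 22.2 and 45.4 CPM in wt, a log2 fold change of -5.49 ± 0.20 (adjusted p = 1.3e-05). Its neighbour on chromosome V was lower as well: *asp-5* had 75.4 and 109 CPM in *ets-4*, against 196 and 218 CPM in wt. The annotated genes *asp-12* (V, 8269210 to 8272056, WBcel235) and *asp-5* (8272385 to 8274044) are separated by 328 bases. *asp-1*, an intestinal protease, had 185 and 353 CPM, against 476 and 815 CPM, and *asp-3*, a lysosomal cathepsin D, had 339 and 474 CPM, against 667 and 832 CPM. *asp-6* had 251 and 416 CPM in *ets-4*, against 466 and 758 CPM in wt. For all 5 genes both *ets-4* libraries lay below both wt libraries, a pattern seen in 25.2% of all genes tested. The log2 fold changes of *asp-5*, *asp-1*, *asp-3* and *asp-6* were -1.2, -1.3, -0.91 and -0.89, with adjusted p between 0.00058 and 0.0098. *asp-12*, *asp-5*, *asp-1* and *asp-3* held in all 4 reduced fits.

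The family did not move together. *asp-13* was higher, with 5.86 and 41.4 CPM in *ets-4*, against 2.31 and 19.8 CPM in wt (log2 fold change 1.12, adjusted p = 0.0035). Replicates of *asp-13* differed more than the strains did, and it was higher within each pair. *asp-4* had 231 and 354 CPM, against 224 and 338 CPM, and was not called, nor was *asp-2* at 27.5 and 126 CPM, against 37.7 and 157 CPM. The median log2 fold change of the 12 tested members was -0.18, against 0.01 over all genes tested.

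Cysteine cathepsins, the other large class of lysosomal and gut proteases, had 3 of 10 tested members lower (30%, against 3.71% of all genes) and none higher. *cpr-9*, a cathepsin B-like protease, had 151 and 164 CPM in *ets-4*, against 495 and 629 CPM in wt, a log2 fold change of -1.84 ± 0.10 (adjusted p = 0.00058) that held in all 4 reduced fits. *cpr-4* had 92.1 and 323 CPM in *ets-4*, against 209 and 454 CPM in wt, and *cpr-6* had 708 and 799 CPM, against 844 and 904 CPM. The *cpr-4* libraries of the strains overlapped, those of *cpr-6* did not. Without *ets-4* replicate 1 or 2, 1 cathepsin was called in each case. *cpr-1* had 81.7 and 152 CPM, against 208 and 244 CPM, a log2 fold change of -1.06 that was not called (adjusted p = 0.10), and the main lysosomal cathepsin L gene *cpl-1* had a log2 fold change of -0.03.

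Intestinal markers did not fall together with these proteases. Of 9 defining genes of the intestine, *asp-1* was the 1 called lower and none was called higher. The other 8 had log2 fold changes between -0.20 (*act-5*) and 0.70 (*ifb-2*). The summed level of the 9 genes was 942 and 1471 CPM in *ets-4*, against 1251 and 1810 CPM in wt, of which *asp-1* made up a large part, and none of the 9 was at 0 in any of the 4 libraries.

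Saposin-like proteins and lysozymes, antibacterial effectors of the gut and lysosome, had 7 of 31 tested members lower (22.6%, against 3.71% of all genes) and 1 higher. *spp-3*, *spp-4* and *spp-5* lie within a few kilobases of each other on the X chromosome and were all lower. *spp-3* had 32.8 and 29.2 CPM in *ets-4*, against 94.2 and 102 CPM in wt, a log2 fold change of -1.68 ± 0.12 (adjusted p = 0.0017) that held in all 4 reduced fits. *spp-4* fell by 0.68 and *spp-5* fell by 0.48 on the log2 scale. *spp-23* had 0.910 and 0.431 CPM in *ets-4*, against 3.43 and 3.22 CPM in wt. Of the lysozymes, *lys-4* and *lys-6* were lower by 1.39 and 1.21, whereas *lys-7*, an effector regulated by several immune pathways, was higher, with 124 and 211 CPM in *ets-4*, against 70.1 and 111 CPM in wt (log2 fold change 0.86, adjusted p = 0.0165). The count of lower members was 5 without wt replicate 1, 2 without *ets-4* replicate 1 or wt replicate 2, and 1 without *ets-4* replicate 2.

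**Figure D2:**
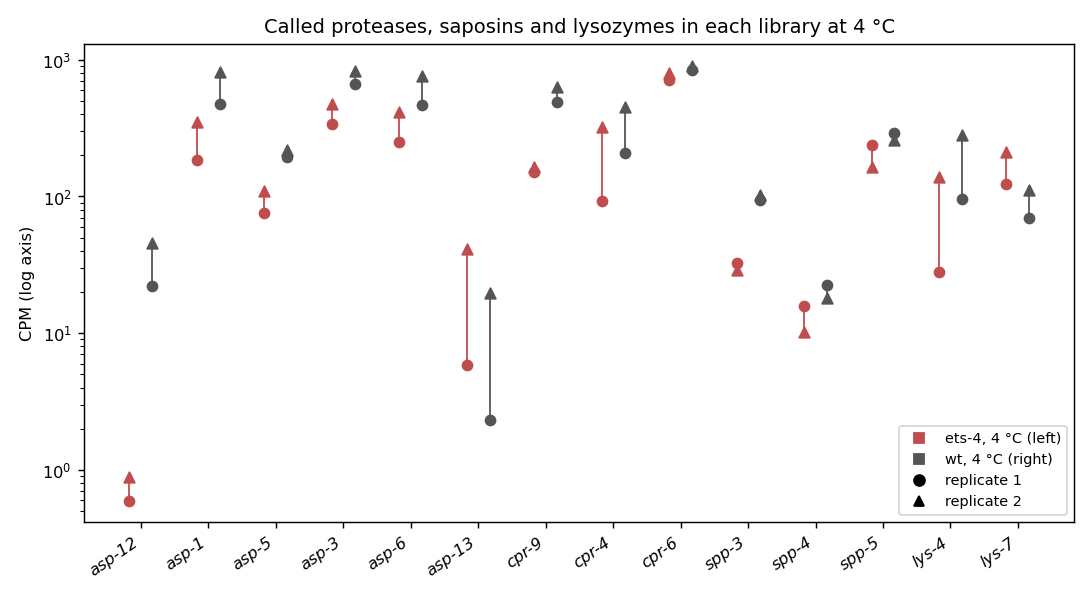
Level in CPM (log axis) of the called aspartyl proteases, cathepsins and selected saposins and lysozymes in the 4 libraries at 4 °C, with *ets-4* in red on the left and wt in grey on the right of each gene. Circles are replicate 1 and triangles replicate 2, and lines join the replicates of a strain. *asp-12* stands at 0.597 and 0.887 CPM in *ets-4*, against 22.2 and 45.4 CPM in wt, whereas *asp-13* and *lys-7* were higher in *ets-4*.

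C-type lectins, secreted and membrane proteins that bind carbohydrates, went both ways. Of 113 tested, 10 were lower (8.85%, against 3.71% of all genes) and 5 higher (4.42%, against 6%). With 1 library left out, 3 to 7 were lower and 1 to 6 higher, with the fewest lower without *ets-4* replicate 2. *clec-52* had 0.370 and 0.481 CPM in *ets-4*, against 4.31 and 4.99 CPM in wt (log2 fold change -3.46 ± 0.27, adjusted p = 0.00064). The neighbours *clec-62* and *clec-63*, whose annotated ends on chromosome II are 509 bases apart, were lower by 1.12 and 0.73. *clec-63* had 127 and 221 CPM in *ets-4*, against 214 and 354 CPM in wt. *clec-86* was higher, with 6.17 and 6.03 CPM in *ets-4*, against 1.76 and 1.47 CPM in wt (log2 fold change 1.91 ± 0.17, adjusted p = 0.0012). These 4 lectins held in all 4 reduced fits. *clec-60*, a lectin induced by *Staphylococcus aureus*, was at 0.967 and 1.65 CPM in *ets-4*, against 0.205 and 0.241 CPM in wt.

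Other infection response genes were also mixed. In a list of CUB-like and infection response genes, 3 of 15 tested were higher (20%, against 6% of all genes), *dod-24*, *dod-22* and *dod-6*. The 2 lower members (13.3%, against 3.71% of all genes) were *irg-5* and *dod-23*. *dod-24* had 15.7 and 23.5 CPM in *ets-4*, against 6.86 and 6.59 CPM in wt, and *irg-5* had 0.882 and 0.760 CPM, against 3.63 and 1.85 CPM. Epidermal antimicrobial peptides had 5 members higher and 5 lower of 39 (12.8% each, against 6% and 3.71% of all genes). *cnc-4* had 7.31 and 4.91 CPM in *ets-4*, against 14.8 and 12.9 CPM in wt, and *nlp-28* had 22.7 and 15.5 CPM, against 43.8 and 29.4 CPM. On the other side, *fipr-1* had 7.08 and 6.28 CPM, against 2.67 and 2.31 CPM. The pals family, which takes part in the response to intracellular pathogens, had 5 of 19 higher (26.3%, against 6% of all genes) and none lower. *pals-23* and *pals-24*, neighbours on chromosome III, had log2 fold changes of 0.77 and 0.68, and *pals-37*, at or below 1.65 CPM, had 1.52. No pals call was made without *ets-4* replicate 1, *ets-4* replicate 2 or wt replicate 2, and 4 were made without wt replicate 1.

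Secreted SCP-like and thaumatin-like proteins had 6 of 13 higher (46.2%, against 6% of all genes) and none lower, with a median log2 fold change of 0.78. *scl-3* had 4.35 and 5.85 CPM in *ets-4*, against 2.64 and 3.0 CPM in wt, and its neighbour *scl-5* had 3.87 and 4.99 CPM, against 1.99 and 3.16 CPM. *thn-2*, a thaumatin-like gene, had 10.4 and 34.5 CPM in *ets-4*, against 7.12 and 22.9 CPM in wt (log2 fold change 0.56, adjusted p = 0.0060). The count for this family was 0 to 2 in the 4 reduced fits, with 0 without *ets-4* replicate 2 and without wt replicate 2.

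Of 62 tested genes for activation and oxidation of fatty acids, 4 were higher (6.45%) and 3 lower (4.84%), close to the shares over all genes of 6% and 3.71%. The counts were 7 higher and 6 lower without wt replicate 1, and at most 1 higher and 2 lower with any other library left out. Of the 7, *ech-9* and *cpt-4* changed by over 1 on the log2 scale and the other 5 by less. *ech-9*, of the enoyl-CoA hydratase family, had the largest fall of all genes called, with 0.0284 and 0.355 CPM in *ets-4*, against 11.5 and 12.2 CPM in wt. These correspond to 1 and 14 reads, against 391 and 456 reads, and to a log2 fold change of -5.97 ± 0.55 (adjusted p = 0.0035) that held in all 4 reduced fits. *acs-1*, an acyl-CoA synthetase needed for branched-chain fatty acids, had 122 and 110 CPM, against 167 and 140 CPM, and *hacd-1*, a hydroxyacyl-CoA dehydrogenase, had 1.45 and 1.14 CPM, against 2.37 and 2.71 CPM. *cpt-4*, of the carnitine palmitoyltransferase family that moves fatty acids into mitochondria, was higher, with 7.96 and 11.2 CPM in *ets-4*, against 3.02 and 4.18 CPM in wt (log2 fold change 1.40, adjusted p = 0.0020). *daf-22*, the peroxisomal thiolase of ascaroside synthesis, was higher by 0.41. *pmp-1*, an ABC transporter of the peroxisomal membrane, had 4.86 and 8.87 CPM in *ets-4*, against 25.7 and 22.3 CPM in wt (log2 fold change -1.91 ± 0.35, adjusted p = 0.040).

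Among 9 elongases, which lengthen fatty acid chains, *elo-2* and *elo-5* were lower (22.2%, against 3.71% of all genes) and none was higher. *elo-2* had 42.4 and 40.7 CPM in *ets-4*, against 62.2 and 70.5 CPM in wt (log2 fold change -0.69 ± 0.07, adjusted p = 0.0018, held in all 4 reduced fits), and *elo-5* had 25.8 and 31.8 CPM, against 38.8 and 40.1 CPM. Of the 7 desaturases, which insert the bonds that keep membranes fluid, *fat-3* was the 1 called, with 126 and 89.5 CPM in *ets-4*, against 96.7 and 66.1 CPM in wt. *pmt-1* and *pmt-2*, which make phosphocholine for phosphatidylcholine, were higher by 0.36 and 0.34. *ckb-2*, a choline kinase, was lower, with 23.9 and 15.8 CPM in *ets-4*, against 38.2 and 28.1 CPM in wt (log2 fold change -0.76, adjusted p = 0.0048). None of the 6 vitellogenin genes, which encode yolk proteins, was called. *vit-2* had 15402 and 15356 CPM in *ets-4*, against 12717 and 12687 CPM in wt (adjusted p = 0.099), and *vit-6* had 12892 and 12458 CPM, against 11917 and 11017 CPM.

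Of 24 genes of glycolysis and gluconeogenesis 3 were higher (12.5%, against 6% of all genes) and 2 lower (8.33%, against 3.71%). Their median log2 fold change was 0.02. *aldo-1*, a fructose-bisphosphate aldolase, had 77.9 and 85.7 CPM in *ets-4*, against 46.5 and 58.1 CPM in wt (log2 fold change 0.64, adjusted p = 0.0020). *pck-1*, the phosphoenolpyruvate carboxykinase that starts gluconeogenesis, had 181 and 160 CPM, against 109 and 117 CPM (0.58, adjusted p = 0.0038). Both held in all 4 reduced fits. The glyceraldehyde-3-phosphate dehydrogenase genes are near-identical pairs, and reads that match both genes of a pair were not kept. Among those called, *gpd-2* was higher by 0.32, whereas *gpd-4* was lower by 0.33 and *gpd-1* lower by 0.23 (adjusted p = 0.048). Of 17 trehalose and glycogen genes 3 were higher and 3 lower (17.6% each, against 6% and 3.71% of all genes). *tps-2*, a trehalose-6-phosphate synthase, had 67.6 and 78.4 CPM in *ets-4*, against 48.3 and 52.5 CPM in wt (log2 fold change 0.52, held in all 4), whereas the glycogen synthase gene *gsy-1* fell by 0.26. No gene of glycerol-3-phosphate dehydrogenase was called, and *gpdh-2* had 206 and 206 CPM, against 224 and 220 CPM.

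Iron handling genes had 3 of 15 tested members higher (20%, against 6% of all genes) and none lower, with a median log2 fold change of 0.56. *ftn-2*, the main ferritin heavy chain, had 216 and 217 CPM in *ets-4*, against 156 and 135 CPM in wt (log2 fold change 0.56 ± 0.08, adjusted p = 0.0085). *ftn-1*, the intestinal ferritin, had 5.6 and 1.24 CPM, against 0.996 and 0.188 CPM (2.53 ± 0.50, adjusted p = 0.027). Its level also differed several-fold between replicates, so that *ets-4* replicate 2 was near wt replicate 1, and it was higher within each pair. *hrg-1*, a heme importer of the lysosomal membrane, had 20.6 and 28.4 CPM, against 11.2 and 16.3 CPM. The ferroportin *fpn-1.1* and the divalent metal transporter *smf-1* had log2 fold changes of 0.02 and 0.15 and were not called. Without *ets-4* replicate 2 or wt replicate 2 no iron gene was called, without *ets-4* replicate 1 it was 1, and without wt replicate 1 it was 2. Beside iron, *mtl-1*, a metallothionein, had 10.6 and 8.23 CPM in *ets-4*, against 4.39 and 2.57 CPM in wt (1.44 ± 0.20, adjusted p = 0.0056), while the intestinal *mtl-2* had 71.0 and 57.4 CPM, against 65.0 and 46.1 CPM, and was not called.

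Of 14 genes of the hypoxia and hydrogen sulfide pathway, 4 were higher (28.6%, against 6% of all genes) and none lower. *rhy-1*, a regulator of the hypoxia factor HIF-1, had 68.4 and 86.1 CPM in *ets-4*, against 36.8 and 59.5 CPM in wt (log2 fold change 0.70, adjusted p = 0.0051). *cysl-1*, a cysteine synthase-like sensor upstream of HIF-1, had 16.1 and 16.6 CPM, against 11.4 and 12.2 CPM, and the cystathionine gamma-lyases *cth-1* and *cth-2* were higher by 0.78 and 0.32. *hif-1* itself had 117 and 109 CPM, against 107 and 97.7 CPM, and was not called. The number of higher members was 4 without wt replicate 1, 1 without *ets-4* replicate 1 or 2, and 0 without wt replicate 2. Among antioxidant enzymes, *gpx-3*, a glutathione peroxidase, had 4.61 and 4.81 CPM in *ets-4*, against 1.47 and 2.01 CPM in wt (1.43 ± 0.17, held in all 4). *sod-5*, a superoxide dismutase, was below 1 CPM in all 4 libraries, with 0.142 and 0.101 CPM in *ets-4*, against 0.791 and 0.509 CPM in wt.

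Of the detoxification families, glutathione transferases had 3 of 41 higher (7.32%, against 6% of all genes) and none lower, led by *gst-16* with 28.3 and 31.8 CPM in *ets-4*, against 12.3 and 16.9 CPM in wt (log2 fold change 1.05, adjusted p = 0.0109). UDP-glucuronosyltransferases had 3 of 59 higher (5.08%) and none lower, and none of 51 cytochrome P450 genes was called. ABC transporters had 6 of 45 higher (13.3%) and 2 lower. With 1 library left out the higher calls were 0 to 3 for the transferases, 0 or 1 for the UDP-glucuronosyltransferases and 0 to 6 for the transporters, and all 3 counts were 0 without wt replicate 2. *mrp-3* had 30.4 and 39.5 CPM in *ets-4*, against 19.2 and 21.8 CPM in wt, and *pgp-14* had 13.9 and 24.9 CPM, against 9.49 and 12.5 CPM. *fmo-2*, a flavin monooxygenase linked to longevity, had 56.5 and 53.5 CPM, against 27.2 and 27.9 CPM. It was higher in both pairs and did not pass the test (log2 fold change 0.98 ± 0.48, adjusted p = 0.26).

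**Figure D3:**
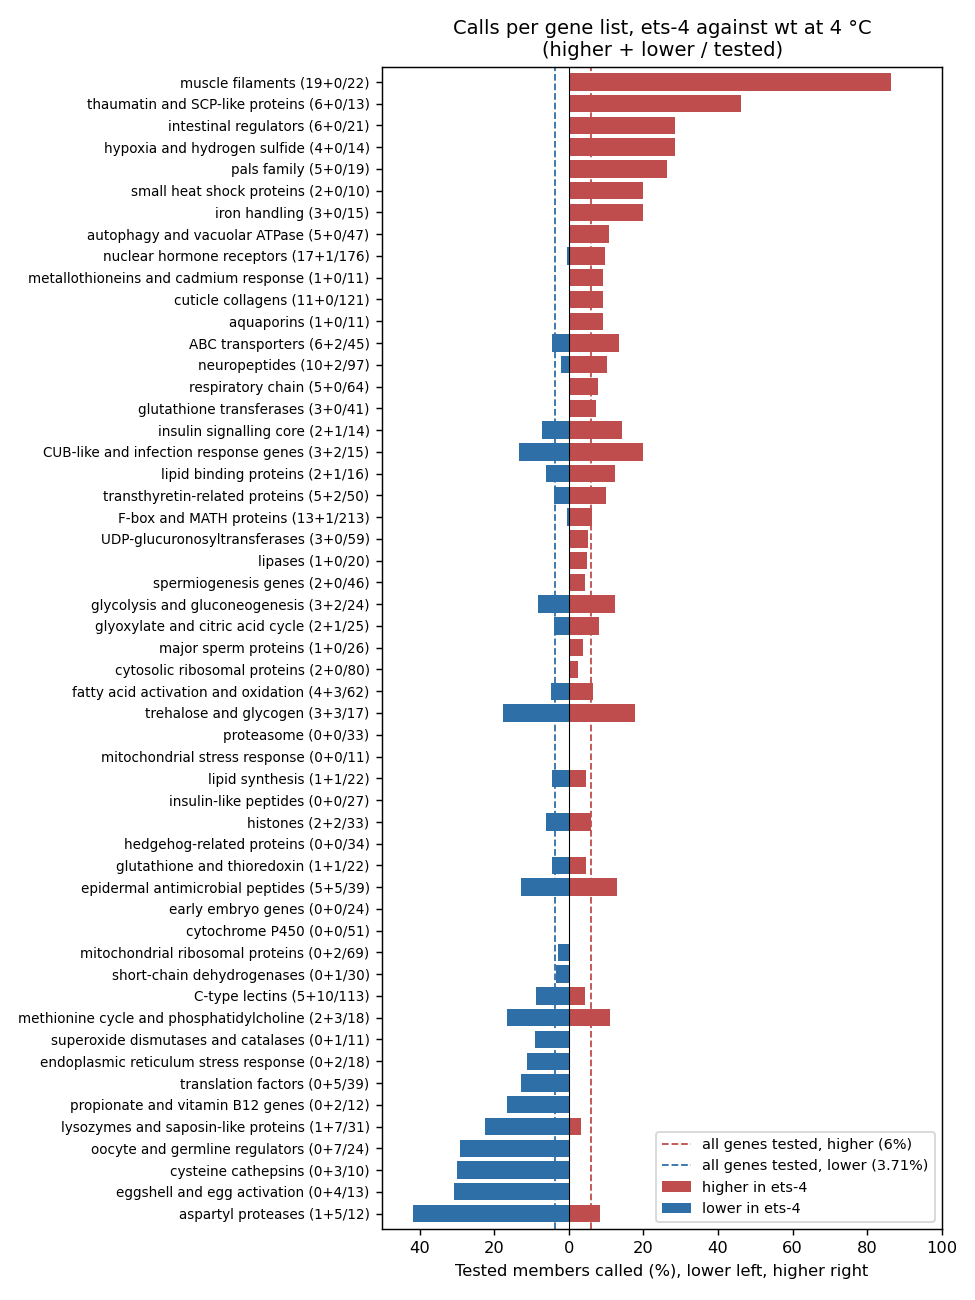
Share of tested members called in each gene list with at least 10 tested members, *ets-4* against wt at 4 °C, higher to the right in red and lower to the left in blue. Numbers after each name give members higher, lower and tested, and dashed lines mark the shares over all genes, 6% higher and 3.71% lower. Muscle filaments stand at the top with 19 of 22 higher, and aspartyl proteases at the bottom with 5 of 12 lower.

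Genes of the muscle filaments were higher as a group. Of 22 tested, 19 were called higher (86.4%, against 6% of all genes) and none lower. Both *ets-4* libraries lay above both wt libraries for all 22, a pattern seen in 27.2% of all genes tested. All 22 were thus higher within both pairs, as were 39.8% of all genes. The median log2 fold change was 0.47. *myo-2*, a myosin heavy chain of the pharynx, had 89.9 and 116 CPM in *ets-4*, against 50.6 and 50.3 CPM in wt (1.00 ± 0.13, adjusted p = 0.0165). *myo-3*, of body wall muscle, had 86.8 and 104 CPM, against 55.9 and 53.3 CPM (0.79 ± 0.09, adjusted p = 0.0043), and *unc-54*, the major body wall myosin, had 1562 and 1969 CPM, against 1139 and 1436 CPM (0.44 ± 0.08). Of the thin filament genes, *mup-2*, a troponin T, had 109 and 141 CPM, against 77.3 and 101 CPM (0.47 ± 0.05), and *act-4*, an actin, had 846 and 1011 CPM, against 666 and 740 CPM (0.39 ± 0.07). *tnc-2*, a troponin C of the pharynx, had 18.9 and 21.4 CPM, against 12.2 and 11.2 CPM (0.78 ± 0.10). The 3 members not called were *tni-1*, *tnt-3* and *tnt-4*, with log2 fold changes of 0.37, 0.24 and 0.62. The count of higher members was 17 without wt replicate 1, 10 without *ets-4* replicate 1, 8 without wt replicate 2 and 2 without *ets-4* replicate 2.

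Markers of other tissues were counted beside the muscle genes. Of the 6 muscle markers 5 were higher, and their summed level was 2070 and 2596 CPM in *ets-4*, against 1470 and 1777 CPM in wt. These 5 are also members of the muscle filament list, so they repeat that result. The other marker, *hlh-1*, had 3.13 and 3.72 CPM, against 2.70 and 2.49 CPM (log2 fold change 0.38), and was not called. Of 7 epidermal markers *col-19* and *elt-3* were higher, with sums of 800 and 1078 CPM, against 635 and 820 CPM, most of it *col-19*. The epidermal factor gene *lin-26* had 145 and 131 CPM, against 143 and 136 CPM, and was not called. Of 9 neuronal markers *sbt-1* was the 1 called higher, with sums of 389 and 450 CPM, against 379 and 409 CPM, and the synaptobrevin gene *snb-1* had a log2 fold change of -0.11. The intestinal marker sum, given above, was lower within both pairs, and *asp-1*, itself among the called proteases, made up a large part of it. The other intestinal markers had log2 fold changes between -0.20 and 0.70, and none was called. Oocyte markers lay on the side opposite to muscle: 2 of 6 were lower, with sums of 6640 and 5760 CPM in *ets-4*, against 7005 and 6812 CPM in wt. The part of tissue proportions in the muscle result was not tested.

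**Figure D4:**
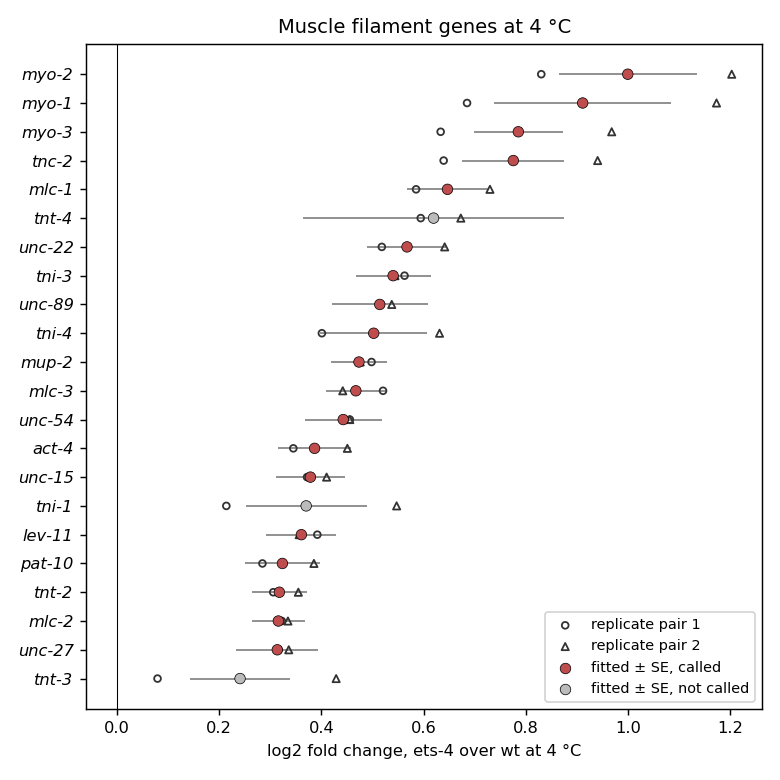
Log2 fold change, *ets-4* over wt at 4 °C, of the 22 muscle filament genes. Filled points with bars are the fitted values ± SE, red where called and grey where not, and open circles and triangles are the ratios of CPM in replicate pairs 1 and 2. All values lie above 0, and *myo-2*, *myo-1* and *myo-3* lie highest.

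Transcripts of the mitochondrial genome were higher, an observation made after the values by chromosome were seen. Of 12 protein-coding genes on that chromosome 11 were called higher, and their summed level was 5349 and 6468 CPM in *ets-4*, against 3740 and 3776 CPM in wt. *ND6* had 26.9 and 32.6 CPM, against 14.1 and 10.7 CPM, and *ND1* had 293 and 331 CPM, against 253 and 238 CPM, both subunits of complex I. *COX3*, a subunit of complex IV, had 669 and 673 CPM, against 570 and 598 CPM, and was not called. The nuclear-encoded respiratory chain did not follow as a group, with 5 of 64 higher (7.81%, against 6% of all genes) and a median log2 fold change of 0.01. Its higher members included *ucr-2.1*, *ucr-2.2*, *asg-2* and *asb-2*, all on the X chromosome, with log2 fold changes of 0.29 to 0.35.

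Transcription factors and cofactors of the intestine had 6 of 21 higher (28.6%, against 6% of all genes) and none lower. *zip-2*, a bZIP factor of the infection response, had 92.9 and 130 CPM in *ets-4*, against 71.4 and 92.0 CPM in wt (log2 fold change 0.42, adjusted p = 0.010). *daf-12*, a steroid hormone receptor, had 14.4 and 18.9 CPM, against 10.5 and 13 CPM, and *hlh-30*, the TFEB homologue that controls autophagy and lysosome genes, had 72.3 and 73.6 CPM, against 59.7 and 64.1 CPM. *sbp-1*, the SREBP homologue of lipid synthesis, *pha-4* and *elt-7* were higher by 0.56, 0.46 and 0.59. None of these was called when either *ets-4* library or wt replicate 2 was left out, and 3 were called without wt replicate 1. Of 14 genes of the insulin pathway, 2 were higher (14.3%, against 6% of all genes) and 1 lower (7.14%, against 3.71%). *ist-1*, an insulin receptor substrate, had 10.6 and 10.6 CPM in *ets-4*, against 6.74 and 6.59 CPM in wt (0.66, adjusted p = 0.0128). *akt-2* was higher by 0.39, and *age-1*, the PI3 kinase, fell by 0.19. None of 27 insulin-like peptides was called.

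Nuclear hormone receptors, ligand-gated factors expanded in nematodes, had 17 of 176 higher (9.66%, against 6% of all genes) and 1 lower (*nhr-23*). *nhr-76* had 15.4 and 16.5 CPM in *ets-4*, against 10.1 and 9.89 CPM in wt, and *nhr-14* had 8.30 and 12.7 CPM, against 5.95 and 7.72 CPM. F-box and MATH proteins, many of them substrate receptors of ubiquitin ligases, had 13 of 213 higher, close to the share over all genes, and 1 lower. *fbxa-107* had 23.4 and 25.1 CPM in *ets-4*, against 13.4 and 12.3 CPM in wt (0.90 ± 0.09, held in all 4). The receptor count was 15 without wt replicate 1, 4 without *ets-4* replicate 1, and 0 without *ets-4* replicate 2 or wt replicate 2.

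Cuticle collagens had 11 of 121 higher (9.09%, against 6% of all genes) and none lower, with a median log2 fold change of 0.40. *col-19*, an adult collagen, had 621 and 913 CPM in *ets-4*, against 470 and 660 CPM in wt, and *col-42* had 135 and 143 CPM, against 95.4 and 109 CPM. *elt-3*, the GATA factor of the epidermis, had 24.4 and 24.2 CPM in *ets-4*, against 14.4 and 14.1 CPM in wt (0.76 ± 0.09, adjusted p = 0.0030, held in all 4). Without *ets-4* replicate 2 no collagen was called, and with the other libraries left out it was between 3 and 6. Neuropeptide genes had 10 of 97 higher (10.3%, against 6% of all genes) and 2 lower. *flp-3* had 10.9 and 12.8 CPM in *ets-4*, against 7.06 and 7.48 CPM in wt, and the lower members were *nlp-28* and *nlp-31*, which belong to the epidermal antimicrobial group. Of the neuropeptides, 10 were called higher without wt replicate 1, 2 without *ets-4* replicate 1, and none without *ets-4* replicate 2 or wt replicate 2.

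Of 24 oocyte and germline regulators 7 were lower (29.2%, against 3.71% of all genes) and none higher, with a median log2 fold change of -0.20. Of 13 eggshell and egg activation genes 4 were lower (30.8%), *egg-2*, *egg-3*, *egg-5* and *egg-6*. *puf-5*, a translational repressor in oocytes, had 822 and 758 CPM in *ets-4*, against 945 and 987 CPM in wt (log2 fold change -0.30 ± 0.06, adjusted p = 0.024). *egg-3*, needed for egg activation, had 231 and 223 CPM, against 262 and 276 CPM (-0.26 ± 0.06, adjusted p = 0.037). Among the translation factors 5 of 39 were lower (12.8%, against 3.71% of all genes), with *eif-3.C* at 426 and 382 CPM, against 504 and 473 CPM. These differences were small and depended on the libraries: with any of *ets-4* replicate 1, *ets-4* replicate 2 or wt replicate 2 left out no regulator was called, and without wt replicate 1 it was 12. The 33 proteasome subunits were all lower in both pairs, a pattern found in 34.8% of all genes tested, with a median of -0.16, and none was called.

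Few sperm genes passed the test, although most were higher in both pairs. Of 26 tested major sperm protein genes, 1 was called higher (*msp-33*, log2 fold change 1.52, adjusted p = 0.028), which is 3.85%, against 6% of all genes. It was not called with any 1 library left out. These genes are near-identical copies, and reads that match more than 1 place were not kept. The median log2 fold change of the family was 1.03. Within both pairs 22 of the 26 were higher and none lower, against 39.8% higher over all genes tested. DESeq2 called 8 of them higher, and edgeR on only the 4 libraries compared called 14. The family summed to 24.9 and 56.1 CPM in *ets-4*, against 8.20 and 35.1 CPM in wt. Levels in replicate 2 were above those in replicate 1 in both strains, and the ranges of the strains overlapped. Of 46 spermiogenesis genes 2 were higher (4.35%) and none lower, and none of the 8 tested sperm markers was called. Their median log2 fold changes were 0.71 and 1.08. In both pairs 34 spermiogenesis genes were higher and 5 lower, and 7 sperm markers were higher and none lower. DESeq2 called 8 spermiogenesis genes and 3 sperm markers higher. *spe-41*, a calcium channel subunit of sperm, had 9.02 and 9.75 CPM in *ets-4*, against 3.43 and 4.24 CPM in wt (1.29 ± 0.15, adjusted p = 0.0027, held in all 4). None of the 24 tested early embryo genes was called.

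None of the cytosolic HSP70 and HSP90 genes and none of the mitochondrial stress genes was called: *hsp-1* had a log2 fold change of -0.14 and *hsp-6* of 0.00. Small heat shock genes had 2 of 10 higher (20%, against 6% of all genes), *hsp-12.2* and *hsp-25*. *hsp-12.2* had 24.6 and 27.2 CPM in *ets-4*, against 17.9 and 17.4 CPM in wt. All 18 tested genes of the endoplasmic reticulum stress response had log2 fold changes below 0, with a median of -0.21. In both pairs 14 were lower, as were 34.8% of all genes. Of these 18, *dnj-27* and *sel-1* were called lower (11.1%, against 3.71% of all genes). *dnj-27*, a thioredoxin-like chaperone, had 35.9 and 31 CPM, against 47.0 and 41.7 CPM (-0.42, adjusted p = 0.013). The count of lower members was 9 without wt replicate 1, 7 with DESeq2 and 0 with any other library left out. Autophagy and vacuolar ATPase genes had 5 of 47 higher (10.6%, against 6% of all genes), among them *epg-9* and *lgg-2*, an LC3 homologue, by 0.41 and 0.29.

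The largest rises were of genes barely detected in wt. A total of 82 genes were called higher and also rose at least 2-fold in both replicate pairs on log2 of the scaled count plus 8, and 19 were called lower and fell as much. By the 2-fold criterion alone 142 genes were higher (0.694% of 20447) and 22 lower (0.108%). Of the 15 genes with the largest fitted rise, 14 were below 1 CPM in both wt libraries and 5 were above 1 CPM in both *ets-4* libraries. *scrm-4*, of the phospholipid scramblase family, had 7.48 and 11.9 CPM in *ets-4*, against 1.23 and 1.15 CPM in wt (2.97 ± 0.26, adjusted p = 0.0012). The uncharacterised genes D1054.18 and C08F11.7 had 2.62 and 5.6 CPM, against 0.176 and 0.214 CPM, and 3.81 and 5.17 CPM, against 0.440 and 0.831 CPM. *bath-13*, a BTB and MATH domain gene, had 2.08 and 2.79 CPM, against 0.352 and 0.375 CPM. At the other end T21H3.1 had 48.3 and 65.8 CPM in *ets-4*, against 164 and 231 CPM in wt (-1.80 ± 0.11). All 5 held in all 4 reduced fits.

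Calls were unevenly spread over the chromosomes, a count made after the values were seen and given with no test. On X 204 of 2077 tested genes were higher (9.82%) and 35 lower (1.69%), against 5.30% higher and 4.06% lower over the 12368 autosomal genes. Chromosome V had 7.46% higher, the other autosomes 4.05 to 5.30%. The *ets-4* gene lies on X at 6518883 to 6522667 (WBcel235). Within 1 Mb of it 31 of 268 other tested genes were higher (11.6%) and 10 lower (3.73%), against 9.57% higher and 1.33% lower over the rest of X. The 10 included *cpr-6*, *asp-3*, *spp-3*, *spp-4* and *spp-5*, so that 5 of the lower protease and saposin genes lie near the mutated locus. The part of linked sequence differences between the strains was not tested.

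The libraries of the same strains at 20 °C share no sample with those at 4 °C. There, in a fit of all 16 libraries, 253 of 15775 tested genes were higher in the libraries labelled *ets-4* (1.60%) and 64 lower (0.406%). In a fit of the same 16 libraries, the comparison at 4 °C called 597 higher and 136 lower. The overlaps that follow use the 874 and 540 calls from the 8 libraries at 4 °C and so compare unlike fits. Of the 874 genes higher at 4 °C, 169 were also called higher at 20 °C, which is 19.3% of the first set and 66.8% of the other. Of the 540 lower at 4 °C, 35 were lower at 20 °C, 6.48% and 54.7%. The only gene called in opposite directions was *ets-4* itself. The aspartyl protease change was present at 20 °C as well, with 5 of 13 tested members lower and 1 higher. *asp-12* had 0.568 and 1.1 CPM in libraries labelled *ets-4*, against 14.5 and 47.3 CPM in wt. Of 10 cathepsins tested at 20 °C, 1 was lower, *cpr-9*, with 301 and 316 CPM, against 835 and 887 CPM. *cpr-4* and *cpr-6* had log2 fold changes of -0.12 and -0.14 at 20 °C and were not called. Muscle filaments had 10 of 22 higher at 20 °C, with a median log2 fold change of 0.50, against 19 and 0.47 at 4 °C. In the fit of all 16 libraries 16 were higher at 4 °C.

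Other genes were called at 4 °C and not at 20 °C. *elo-2* had 213 and 274 CPM in libraries labelled *ets-4* at 20 °C, against 222 and 256 CPM in wt, *pmp-1* had 19.6 and 23.2 CPM, against 18 and 27.6 CPM, *ttr-31*, a transthyretin-related gene, had 11.3 and 12.9 CPM, against 10.3 and 11.7 CPM, and *gst-16* had 3.28 and 3.51 CPM, against 2.75 and 3.40 CPM. At 4 °C *ttr-31* had 19.9 and 11.9 CPM in *ets-4*, against 49.7 and 20.8 CPM in wt (-1.09 ± 0.12). The test of the difference between temperatures did not pass for these genes, with adjusted p of 0.29 for *elo-2*, 0.49 for *pmp-1*, 0.10 for *ttr-31* and 0.74 for *gst-16*. It passed for 1 gene of 15775 (0.00634%), *ets-4*, and 615 genes had an unadjusted p under 0.05. With DESeq2 in place of edgeR 24 genes passed, and with *ets-4* replicate 1 or 2 left out at either temperature none did.

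**Figure D5:**
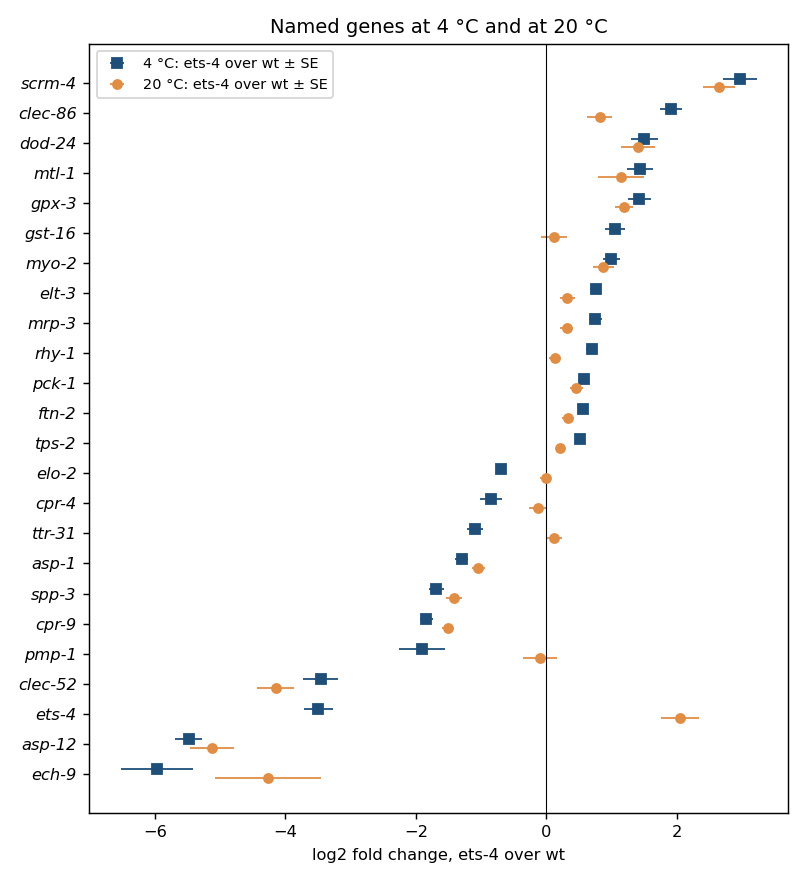
Log2 fold change, *ets-4* over wt, of 24 genes described in the text at 4 °C (blue squares) and at 20 °C (orange circles), with bars of 1 SE. *asp-12*, *cpr-9* and *scrm-4* lie close together at both temperatures, and *ets-4* lies at -3.50 at 4 °C and at 2.05 at 20 °C.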

How the data were processed

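RNA from whole worms was sequenced with stranded TruSeq libraries (50-cycle single-end reads). The deposited table holds raw counts per gene: the authors mapped reads to WBcel235 with STAR, kept unique reads with at most 3 mismatches, and counted with summarizeOverlaps those lying on protein-coding exons. The strand setting and annotation release are not given in the sources used here, so overlapping genes and near-identical copies are uncertain. Gene names and positions are from Ensembl release 115 of WBcel235. All but 827 of 20447 identifiers had a symbol.

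Counts were tested with the quasi-likelihood test of edgeR 4.0.16 (TMM, filterByExpr, Benjamini-Hochberg adjustment) on the 8 libraries at 4 °C, with strain and replicate number as terms, which left 3 residual degrees of freedom. SE is approximate, taken as the fitted change over the root of its F statistic. The 20 °C values and the test of the difference used all 16 libraries with the replicate number as a block within temperature. The pairing follows the methods of the study, which compare like-numbered biological replicates. Deviations of like-numbered libraries between strains at 4 °C correlated at 0.58 to 0.82 over 11360 genes, 0.74 for *ets-4* and wt. With 2 libraries a strain, p-values measure only the spread between these samples.

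Described were 64 gene lists and 7 marker lists, by counts and medians with no set test. Members and lists were chosen with earlier results of these data known. Named were the 15 largest rises and 15 largest falls that also passed the 2-fold rule, up to 4 called members with the smallest p per list (2 most abundant where none was called), *ets-4*, *daf-16*, *pqm-1*, *rege-1*, and up to 6 genes in each direction for the difference between temperatures. Other genes named, such as further members of a described list, were chosen after their values were seen. Alternatives were other scalings and filters, DESeq2 1.42.0, fewer or more libraries, no block, and each library left out. The script was checked on simulated counts. No sequence was used here, so the planned count of promoter motifs was not run.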

Additional observations from a re-analysis of the deposited data

Results flagged for a closer look

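For the *ets-4* transcript, the difference between *ets-4* and wt was not the same at both temperatures. The change between them was -5.53 on the log2 scale, 4 °C minus 20 °C (edgeR test of the difference, adjusted p = 0.024), with 4.41 and 8.84 CPM in *ets-4*, against 60.8 and 85.1 CPM in wt at 4 °C, and 76.9 and 163 CPM in libraries labelled *ets-4*, against 25.8 and 26.1 CPM in wt at 20 °C. The strains that also carry *daf-16*(*mu86*) or *pqm-1*(*ok485*) showed the same split, with 7.42 to 12.5 CPM in their 4 libraries at 4 °C and 85.5 to 196 CPM in their 4 libraries at 20 °C. A cause was not tested. Groups of 2 libraries are too small to ask whether a single library lies apart from its group.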

How the results depend on the processing

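Other settings changed how many genes passed more than which way they went: no gene called in the reported fit was called in the opposite direction under any alternative. Of the 205 named genes, none that was called in the reported or the alternative fit changed sign between them, where both gave an adjusted p. Sign changes of genes called in neither fit were not counted. For genes higher in *ets-4* at 4 °C (874), the count was 0 without the replicate block and 1439 with only the 4 libraries compared, and ranged from 88 to 765 with 1 library left out. For genes lower (540), it was 0 without the replicate block, 136 with all 16 libraries and 282 with library totals, and ranged from 23 to 659 with 1 library left out. DESeq2 called 844 higher and 704 lower, sharing 708 and 484 with the reported calls. The difference between temperatures passed for 1 gene, and for 2 with DESeq2 size factors, 24 with DESeq2, 0 without the replicate block and 0 to 3 with 1 library left out. The 2-fold rule called 164 genes with a pseudocount of 8 and 697 with a pseudocount of 1, and with 1 replicate pair alone, chosen after seeing the data, 456 to 705. Of the named genes, 178 lost their call without the replicate block, 62 with all 16 libraries, 24 with library totals and 6 with DESeq2, and 144 without *ets-4* replicate 2, 132 without wt replicate 2, 104 without *ets-4* replicate 1 and 46 without wt replicate 1. Named genes with no adjusted p in an alternative fit are left out of its count. With DESeq2, 177 named genes were unchanged, 6 lost their call and 3 gained one, and the rest had no adjusted p. Fits that leave a strain with 1 library assume that it varies like the other strains. The cause of these changes was not tested. The 4 libraries compared held at least 36359584 reads each, with 2 libraries a strain. The part of counting error in the precision was not tested.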
